A study of Mus musculus with 6 samples.

Results

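The oxidative phosphorylation subunits are the nuclear-encoded proteins that build the respiratory chain and ATP synthase in the inner mitochondrial membrane. They were picked by gene symbol alone: Ndufa, Ndufb, Ndufc, Ndufs and Ndufv followed by a number, Sdha to Sdhd, symbols starting with Uqcr, Cox4 to Cox8 or Atp5, and Cyc1 and Cycs. This gave 80 of the 12393 genes that had a probe set with a single symbol. All 80 matched the mouse reference gene table by gene identifier. The 3 USP7-titled arrays and the 3 control arrays were each hybridised with RNA of regulatory T cells (Treg), CD4 T cells that restrain immune responses under the transcription factor Foxp3. The cells were sorted as CD4+YFP+ from mice on a C57BL/6 background, and 100 ng of total RNA was amplified per sample. The series text describes the USP7-titled mice as fl-Usp7/Foxp3cre, a floxed Usp7 allele with Cre recombinase made in Foxp3-expressing cells, whereas the genotype field of the same arrays reads fl-HDAC11/Foxp3cre. The control arrays carry B6_WT titles and the genotype Foxp3cre, so both groups carry the Cre allele. The conflict over the floxed gene could not be resolved, and the groups are named after their titles. The labels give no ages. They do not say whether each sample came from its own mouse either, so the p-values rest on the spread between samples, part of which may be technical.

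Complex I takes electrons from NADH and complex II takes them from succinate. Both pass them through ubiquinone to complex III, and cytochrome c carries them on to complex IV, which reduces oxygen. Complexes I, III and IV pump protons out of the matrix, and complex V, the ATP synthase, uses their return to make ATP. Most subunits are encoded in the nucleus and a small set in mitochondrial DNA. Treg are known to rely on this pathway more than conventional effector T cells do.

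Values are log2 signals per probe set, and each change is the mean of the USP7-titled arrays minus that of the control arrays. The brightest probe set over all 6 arrays stood for each gene. A gene was called higher or lower where limma's Benjamini-Hochberg adjusted p over all 12393 genes was under 0.05. Most subunit genes were called higher, by small amounts. Of the 80 genes 67 were higher, 2 were lower (Sdha and Cox7a2l) and 11 did not pass. That is 83.8% higher, against a background of 17.0% of all genes called higher, 15.9% called lower and 32.9% called in either direction. Higher calls made up 51.5% of all calls over the table, and 75.9% when the arrays were scaled to their hybridization spikes. The median change was 0.32 on the log2 scale, or 1.25-fold, whereas the median over all genes was -0.05. Single changes ran from -0.34 (Cox8b) to 2.61 (Cox6b2), and 13 genes differed by at least 1.5-fold.

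The groups seldom overlapped. In 69 of the 80 genes every USP7-titled array lay above every control array, against 20.9% of all genes. In 4 genes (Sdha, Cox7a2l, Cox4i2 and Cox8b) every USP7-titled array lay below, against 24.7% of all genes. When each gene was set against its own control mean, the median over the subunits was 0.31, 0.34 and 0.33 in the USP7-titled arrays, against -0.01, -0.02 and 0.03 in the controls. The shift was thus of like size in each USP7-titled array. The control medians are small by construction, since each control array is part of the mean subtracted. The median SD within a group was 0.0537 for the subunits in the USP7-titled arrays and 0.071 in controls, below the 0.13 and 0.111 found over all genes. Subunit transcripts were also abundant: 73 of the 80 lay above the median gene, which was at 8.14. Since bright genes can be called at smaller changes, the 534 genes at or above the median level of the subunits give a second background. In that set 35.8% were called higher and 27.5% lower. Of the 534 genes, 210 had every USP7-titled array above every control array, and 176 had every one below. The set includes the brighter subunit genes themselves. The SDs were not compared within it.

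**Figure D1:**
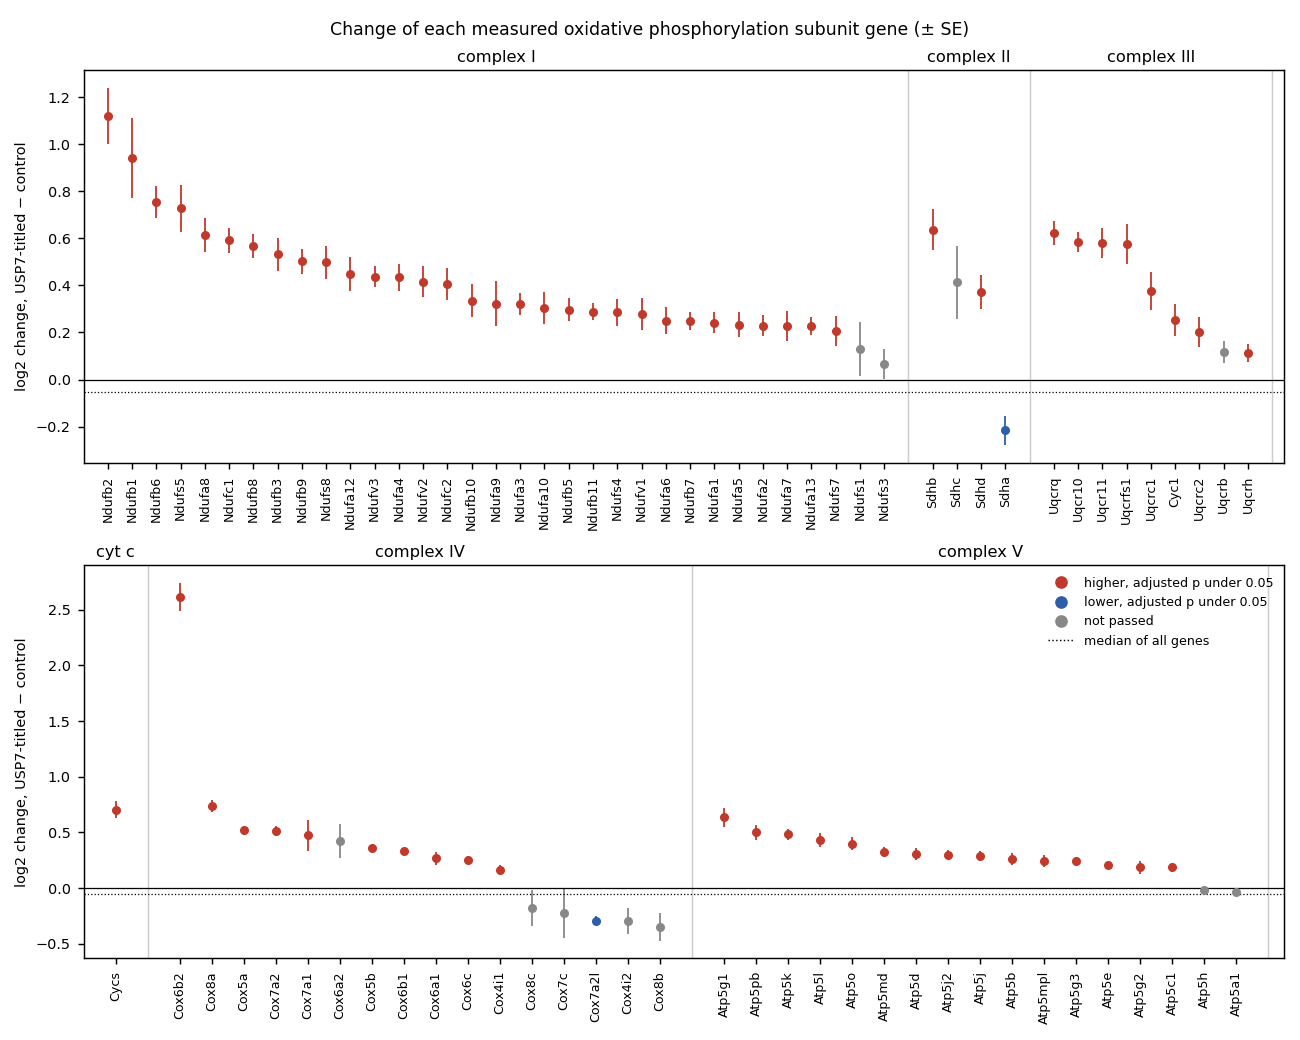
Log2 change (USP7-titled minus control, vertical axis) of each of the 80 subunit genes, grouped by complex and sorted within it; points are changes, bars are ± SE of the limma fit, and the dotted line is the median of all genes. Red points (67) passed as higher, blue points (2, Sdha and Cox7a2l) as lower and grey points (11) did not pass; Cox6b2 stands apart at 2.61.

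Other features of the arrays also differed between the groups. Usp7 read 10.54, 10.69 and 10.76 in the USP7-titled arrays, against 11.69, 11.73 and 11.61 in controls, a fall of 1.01 (limma adjusted p = 1.32e-06). Hdac11, the gene named in the genotype field, read 6.04, 5.65 and 5.74 in the USP7-titled arrays, against 6.65, 6.20 and 6.29 in controls. It was also called lower (change -0.58, SE 0.16, limma adjusted p = 0.0154), at a level below the median gene. Which gene was floxed was not tested. Foxp3, which defines Treg, averaged 7.004 ± 0.25 in the USP7-titled arrays and 12.98 ± 0.15 in controls (SD, n = 3 each), so this defining marker lay below the median gene in the USP7-titled arrays. Of 8 Treg and T cell markers 6 fell, with a summed linear signal of 37839 to 38412 in the USP7-titled arrays and 48878 to 50893 in controls, while Cd4 differed by 0.01. All 19 measured markers of proliferating cells rose, with a median change of 2.56 and sums of 48854 to 49532 in the USP7-titled arrays, against 15105 to 16860 in controls. Of 14 macrophage and neutrophil markers 10 rose and 0 fell, with sums of 4686 to 6163 in the USP7-titled arrays, against 1471 to 1960 in controls, where none of the 14 exceeded the median gene. Of 8 CD8 T and NK cell markers Gzma and Nkg7 rose and the other 6 did not pass, and the list's median change was -0.07. Its sums were 5853 to 6145 in the USP7-titled arrays and 1664 to 1803 in controls, with Nkg7 averaging 12.24 in the USP7-titled arrays and 9.47 in controls. Of 7 B cell markers 1 was higher and 1 lower, and of 6 dendritic cell markers 1 was higher and 2 lower. Of 3 erythroid markers 0 were called in either direction. Over all genes 32.9% were called in either direction. The female-specific Xist averaged 5.30 in the USP7-titled arrays and 12.498 in controls, and the Y-linked Eif2s3y averaged 10.15 in the USP7-titled arrays and 4.50 in controls, and sex therefore cannot be told apart from group. As a measure of RNA quality, the 3' Gapdh control exceeded the 5' one by 0.907 to 0.986 log2 units in the USP7-titled arrays and by 0.989 to 1.23 in controls. The same difference for the actin control was -0.180 to -0.155 in the USP7-titled arrays and -0.286 to -0.151 in controls, so the groups overlapped in it. The part of proliferation, other cell types, sex or RNA quality in the subunit changes was not tested. In bulk RNA, a different share of cells of a type and a different amount of RNA per cell cannot be told apart.

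Promoter sequences of 7 of the genes described below are shown as examples of the motifs counted here; whether the motifs bear on the changes was not tested. Cycs and Sdhb, both called higher, hold a match to the element of NRF1, a known activator of respiratory genes. Close to the start, Cox8a holds a match to the ETS element bound by GABPA, and Atp5pb holds a match to the YY1 element. Sdha fell while its partner Sdhb rose, and Cox6b1 and Cox6b2 are paralogs with very different changes. Each line runs from 250 bases before the annotated start to 30 after it, 5′ to 3′ on the gene's strand, from RefSeq on GRCm38.p6; capitals mark motif matches. The windows are chr6:50566540-50566819 (minus strand) for Cycs, chr19:7217587-7217866 (minus) for Cox8a, chr3:105959234-105959513 (minus) for Atp5pb, chr4:140961021-140961300 (plus) for Sdhb, chr13:74350211-74350490 (minus) for Sdha, chr7:30626085-30626364 (minus) for Cox6b1 and chr7:4753065-4753344 (minus) for Cox6b2.
Cycs: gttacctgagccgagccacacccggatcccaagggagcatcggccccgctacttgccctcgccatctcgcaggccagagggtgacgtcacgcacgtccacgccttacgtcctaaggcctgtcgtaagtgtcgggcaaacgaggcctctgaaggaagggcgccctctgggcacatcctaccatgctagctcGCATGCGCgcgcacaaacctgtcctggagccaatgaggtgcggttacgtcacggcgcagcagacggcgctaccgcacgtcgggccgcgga
Cox8a: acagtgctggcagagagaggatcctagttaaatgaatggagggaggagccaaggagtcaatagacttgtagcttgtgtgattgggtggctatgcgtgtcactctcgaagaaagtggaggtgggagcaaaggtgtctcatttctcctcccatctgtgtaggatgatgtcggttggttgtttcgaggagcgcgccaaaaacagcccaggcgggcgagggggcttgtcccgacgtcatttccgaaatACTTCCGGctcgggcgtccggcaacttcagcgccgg
Atp5pb: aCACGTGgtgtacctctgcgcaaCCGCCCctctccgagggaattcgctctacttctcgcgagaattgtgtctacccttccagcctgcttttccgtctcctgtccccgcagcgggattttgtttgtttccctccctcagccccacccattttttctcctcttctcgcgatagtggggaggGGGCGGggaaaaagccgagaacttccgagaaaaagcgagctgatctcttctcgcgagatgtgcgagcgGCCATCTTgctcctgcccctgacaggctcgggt
Sdhb: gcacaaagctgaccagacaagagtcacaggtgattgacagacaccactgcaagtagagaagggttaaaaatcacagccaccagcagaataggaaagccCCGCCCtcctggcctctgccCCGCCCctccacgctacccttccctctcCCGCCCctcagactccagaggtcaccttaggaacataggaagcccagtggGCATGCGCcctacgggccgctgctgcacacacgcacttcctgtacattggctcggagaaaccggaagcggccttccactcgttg
Sdha: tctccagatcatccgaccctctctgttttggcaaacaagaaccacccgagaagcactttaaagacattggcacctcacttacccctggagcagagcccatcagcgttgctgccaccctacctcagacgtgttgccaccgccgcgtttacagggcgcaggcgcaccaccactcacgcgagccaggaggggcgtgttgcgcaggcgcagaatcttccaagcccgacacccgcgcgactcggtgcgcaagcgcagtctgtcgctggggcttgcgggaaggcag
Cox6b1: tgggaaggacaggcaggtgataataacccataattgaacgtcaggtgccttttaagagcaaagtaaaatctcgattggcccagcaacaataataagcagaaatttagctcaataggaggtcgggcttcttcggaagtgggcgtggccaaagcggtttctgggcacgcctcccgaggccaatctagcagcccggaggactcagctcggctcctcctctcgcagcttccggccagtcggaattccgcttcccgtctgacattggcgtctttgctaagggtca
Cox6b2: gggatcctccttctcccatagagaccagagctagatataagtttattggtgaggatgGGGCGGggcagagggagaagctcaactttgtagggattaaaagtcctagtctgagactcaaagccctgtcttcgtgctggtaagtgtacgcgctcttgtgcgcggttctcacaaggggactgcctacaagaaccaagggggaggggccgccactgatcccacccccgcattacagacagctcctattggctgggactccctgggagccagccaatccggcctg

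The NRF1 match stood 60 bases before the start in Cycs and 54 bases before it in Sdhb. In Cox8a the ETS match began 6 bases before the start, and in Atp5pb the YY1 match began 3 bases before it. Sdhb also held 3 SP1 matches, Atp5pb 2 SP1 matches and an E-box, and Cox6b2 a single SP1 match. The printed stretches of Sdha and Cox6b1 held none of the 6 motifs searched. Those were NRF1 (GCGCATGC), ETS (CCGGAAGT), YY1 (AAGATGGC), SP1 (CCGCCC), E-box (CACGTG) and ESRRA (TCAAGGTCA), each searched on both strands, with overlapping matches of different motifs counted for each. A RefSeq window of 300 bases was at hand for 65 of the 80 subunit genes, for 9882 of all genes tested and for 27025 genes in all. NRF1 was present in 10 of the 65 (15.4%), against 5.01% of the genes tested and 3.05% of all genes. YY1 was present in 9 (13.8%), against 4.39% and 3.19%. ESRRA was present in 2 (3.08%), against 0.344% and 0.466%. ETS was present in 5 (7.69%), against 7.24% and 4.31%, and the E-box in 6 (9.23%), against 10.8% and 8.09%. SP1 was present in 27 (41.5%), against 61.1% of the genes tested and 38.2% of all genes. The genes with NRF1 were Atp5g2, Atp5k, Atp5l, Cox6a1, Cycs, Ndufa6, Ndufa8, Sdhb, Uqcr11 and Uqcrc1, all of them called higher. Of the 65 genes 59 were called higher, so this list adds no contrast with genes that did not change. A match is a run of letters and no evidence of binding.

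Complex I was nearly uniform in direction. Of 33 subunit genes 31 were higher and 0 lower, with a median change of 0.32 and a range of 0.06 to 1.12. The 27 accessory subunits, which surround the catalytic core, were all called higher (median 0.34). Among them, Ndufa9 lost its call without any one of 4 arrays (limma adjusted p = 0.0566 to 0.0849) and Ndufa7 without any one of 3 (limma adjusted p = 0.0703 to 0.0813). Some calls also depended on the probe set, as counted below for all subunit genes. Ndufa12 rose by 0.45, while its other probe sets were at 0.02, 0.15 and 0.20 and did not pass. For Ndufs4 the dimmest probe set was lower (-0.65) and another was higher (0.50). The dimmer Ndufa5 probe set, at 0.24, did not pass. Ndufa4, placed here by its symbol, is now regarded as a subunit of complex IV; counted there, 30 of 32 complex I genes and 11 of 17 complex IV genes were higher. Of the 6 measured core subunits, a group that includes the carriers of the flavin and iron-sulfur clusters, 4 were higher (median 0.24). By symbol, all 12 Ndufa genes (median 0.28), all 10 Ndufb genes (median 0.52), both Ndufc genes, 4 of 6 Ndufs genes and all 3 Ndufv genes were higher. The difference between core and accessory subunits was not tested.

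The largest changes of complex I lay in its membrane arm. Ndufb2, an accessory subunit of that arm, read 10.73, 10.77 and 10.89 in the USP7-titled arrays, against 9.48, 9.58 and 9.97 in controls. Every USP7-titled array lay well above every control, although control replicate 3 was closer than the others. The change was 1.12 (SE 0.12), or 2.18-fold, with a limma adjusted p of 3.33e-05. Ndufb1, a small subunit of the same arm, read 6.90, 7.42 and 7.19 in the USP7-titled arrays, against 6.01, 6.51 and 6.16 in controls. It is dim, below the median gene, and still did not overlap (change 0.94, SE 0.17, limma adjusted p = 0.00132). Ndufb6, also of the membrane arm, read 11.61, 11.54 and 11.50 in the USP7-titled arrays, against 10.91, 10.78 and 10.70 in controls. This was a tight separation (change 0.76, SE 0.07, limma adjusted p = 1.03e-05). Ndufs5, which faces the intermembrane space, read 10.31, 10.43 and 10.46 in the USP7-titled arrays, against 9.79, 9.49 and 9.74 in controls. Its change of 0.73 (SE 0.10) was 1.66-fold (limma adjusted p = 0.000192). Ndufa8, another subunit of the intermembrane face, rose by 0.61, Ndufc1 by 0.59 and Ndufb8 by 0.57.

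The brightest complex I genes moved little but clearly. Ndufa13, an accessory subunit also known as GRIM-19, read 13.35, 13.38 and 13.45 in the USP7-titled arrays, against 13.15, 13.11 and 13.24 in controls (change 0.23, SE 0.04, limma adjusted p = 0.000874). Ndufb7 read 13.19, 13.31 and 13.34 in the USP7-titled arrays, against 13.04, 13.02 and 13.04 in controls (change 0.25, SE 0.04, limma adjusted p = 0.000498). Both are above the median subunit in level, and neither overlapped between groups. The core subunits divided. Ndufs8, an iron-sulfur subunit, rose by 0.50, Ndufv2 by 0.42 and Ndufv1, which binds NADH and flavin, by 0.28. Ndufs7 rose by 0.21 with overlapping groups and lost its call without any one of 4 of the 6 arrays (limma adjusted p = 0.0824 to 0.125). Ndufs3 read 11.06, 10.94 and 11.07 in the USP7-titled arrays, against 10.94, 10.99 and 10.95 in controls, and did not pass (change 0.06, 95% interval -0.08 to 0.20, limma adjusted p = 0.483). Ndufs1, the largest core subunit, did not pass either (change 0.13, 95% interval -0.12 to 0.38, limma adjusted p = 0.426). The X-linked members Ndufa1 (0.24) and Ndufb11 (0.29) changed by amounts within the range of the autosomal subunits. When sex-linked genes were removed, an alternative added after the data were seen, 65 of the remaining 78 subunit genes were higher and 2 lower. Sex and group coincide in these arrays, and any part of sex in the autosomal genes was not tested by this removal.

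Complex II, which doubles as succinate dehydrogenase of the citric acid cycle, was split between its catalytic partners. Sdhb, its iron-sulfur subunit, read 11.50, 11.45 and 11.28 in the USP7-titled arrays, against 10.84, 10.60 and 10.89 in controls (change 0.64, SE 0.09, limma adjusted p = 0.000204). Sdha, the flavin subunit that oxidises succinate, read 11.39, 11.39 and 11.31 in the USP7-titled arrays, against 11.61, 11.66 and 11.47 in controls (change -0.22, SE 0.06, limma adjusted p = 0.0198). The groups did not overlap for either gene, in opposite directions. A second Sdha probe set fell by 0.33. The Sdha call was lost without USP7-titled replicate 3, control replicate 1 or control replicate 2 (limma adjusted p = 0.072 to 0.0867) and under scaling to the hybridization spikes (change -0.06, limma adjusted p = 0.625). The membrane anchors were Sdhd and Sdhc. Sdhd read 10.77, 10.81 and 10.72 in the USP7-titled arrays, against 10.48, 10.33 and 10.38 in controls, and rose by 0.37 (SE 0.07, limma adjusted p = 0.0023). Sdhc read 10.83, 10.75 and 10.81 in the USP7-titled arrays, against 10.58, 10.65 and 9.92 in controls. Control replicate 3 stood far below the other two, and the gene did not pass (change 0.41, SE 0.16, limma adjusted p = 0.0648). A second Sdhc probe set rose by 0.53.

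Complex III rose in 8 of 9 genes, with a median of 0.38. Uqcrq, a small subunit of the membrane region, read 12.09, 11.996 and 11.96 in the USP7-titled arrays, against 11.41, 11.37 and 11.40 in controls (change 0.62, SE 0.05, limma adjusted p = 4.98e-06). Uqcr10, another small subunit, read 12.51, 12.53 and 12.59 in the USP7-titled arrays, against 11.91, 11.96 and 12.01 in controls (change 0.59, SE 0.04, limma adjusted p = 2e-06). Both separated by several times the SD within a group, although 3 further Uqcrq probe sets, all below the median gene, were at -0.11, -0.48 and -0.27 and did not pass. Uqcr11 rose by 0.58 and Uqcrfs1, the Rieske iron-sulfur protein that takes electrons from ubiquinol, by 0.57. The core proteins Uqcrc1 and Uqcrc2 rose by 0.38 and 0.20, and Cyc1, cytochrome c1, by 0.25. The Uqcrc2 call was lost without any one of 4 of the 6 arrays: USP7-titled replicates 2 and 3 and control replicates 2 and 3 (limma adjusted p = 0.0536 to 0.122). The Cyc1 call was lost without USP7-titled replicate 2 or control replicate 2 (limma adjusted p = 0.053 and 0.0562). Uqcrh, the hinge protein that binds cytochrome c1, read 12.66, 12.72 and 12.68 in the USP7-titled arrays, against 12.51, 12.59 and 12.63 in controls. This was a marginal call (change 0.11, SE 0.04, limma adjusted p = 0.049), lost without any one of 5 of the 6 arrays. Uqcrb did not pass by its brightest probe set (change 0.12, limma adjusted p = 0.0858), while its dimmer probe set rose by 0.66. Without USP7-titled replicate 2, and without control replicate 2, 5 genes of the complex were higher.

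Cycs, cytochrome c, which carries electrons from complex III to IV and triggers apoptosis when released, read 12.21, 12.27 and 12.23 in the USP7-titled arrays, against 11.43, 11.44 and 11.74 in controls. Control replicate 3 stood above the other two and still well below all USP7-titled arrays. The change was 0.70 (SE 0.08), or 1.63-fold, with a limma adjusted p of 3.9e-05. The 2 other Cycs probe sets rose by 0.80 and 0.58.

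Complex IV held both the largest rise and the largest number of genes not called higher. Of 16 genes 10 were higher and 1 lower, 5 did not pass, and the median was 0.30. Among the generally expressed subunits, Cox8a read 12.01, 11.97 and 11.89 in the USP7-titled arrays, against 11.27, 11.23 and 11.16 in controls (change 0.74, SE 0.05, limma adjusted p = 2.13e-06), while its dimmest probe set was at -0.41 and did not pass. Cox7a2 read 13.08, 13.13 and 13.10 in the USP7-titled arrays, against 12.52, 12.57 and 12.68 in controls (change 0.51, SE 0.04, limma adjusted p = 5.31e-06). In both the groups were far apart. Cox5a, another small subunit, rose by 0.52 (SE 0.04, limma adjusted p = 2.97e-06). Cox5b, which binds zinc, read 13.57, 13.62 and 13.61 in the USP7-titled arrays, against 13.22, 13.22 and 13.27 in controls (change 0.36, SE 0.03). Cox6a1 read 13.29, 13.53 and 13.54 in the USP7-titled arrays, against 13.18, 13.15 and 13.23 in controls, and its first USP7-titled array lay close to the controls (change 0.27, SE 0.06, limma adjusted p = 0.00358). Cox6c rose by 0.26 and Cox4i1, the most widely used form of subunit 4, by 0.17.

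Cox7a2l, a relative of Cox7a2, went the other way. It read 12.44, 12.45 and 12.37 in the USP7-titled arrays, against 12.71, 12.72 and 12.69 in controls. The groups did not overlap, and the change was -0.29 (SE 0.04, limma adjusted p = 0.000117). Its 2 other probe sets fell by 0.32 and 0.30. The call held without each array in turn and was lost under scaling to the hybridization spikes (change -0.13, limma adjusted p = 0.118), a setting in which the median of all genes was 0.11. Under that scaling 70 subunit genes were higher and 0 lower, their median was 0.48, and the distance between that median and the median of all genes was 0.37, as in the deposited values.

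Complex IV and the ATP synthase have alternative forms of some subunits, encoded by separate genes. Cox6b2, known as the testis form of subunit 6b, read 10.34, 10.02 and 10.09 in the USP7-titled arrays, against 7.71, 7.40 and 7.52 in controls. Its controls lay below the median gene and its USP7-titled arrays well above it. The change was 2.61 (SE 0.12), or 6.11-fold, with a limma adjusted p of 8.38e-08, from a single probe set. Cox6b1, the general form, read 12.99, 13.03 and 13.05 in the USP7-titled arrays, against 12.68, 12.67 and 12.72 in controls (change 0.33, SE 0.03, limma adjusted p = 1.76e-05). Both forms rose, by very different amounts. The 6 protein-coding genes on each side of Cox6b2 in the reference annotation were looked up after its change was seen. Kmt5c (0.04), Tmem150b (-0.22), Hspbp1 (-0.04) and Il11 (0.08) did not pass, whereas Ube2s, a ubiquitin-conjugating enzyme of mitosis, rose by 1.11. Tmem86b, Ppp6r1, Brsk1, Tmem190, Tmem238, Rpl28 and the adjacent Fam71e2 were not measured under these symbols, so most of these neighbours have no value.

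The other tissue-restricted forms were dim. Cox7a1, the heart and muscle form of subunit 7a, read 6.65, 6.38 and 6.32 in the USP7-titled arrays, against 5.91, 6.18 and 5.84 in controls, and rose by 0.47 (SE 0.14, limma adjusted p = 0.0249). That call was lost without USP7-titled replicate 1, control replicate 1 or control replicate 3 (limma adjusted p = 0.0728 to 0.0941). Cox6a2, the muscle form of subunit 6a, read 8.08, 8.26 and 8.42 in the USP7-titled arrays, against 7.54, 7.88 and 8.06 in controls, and did not pass (change 0.43, SE 0.15, limma adjusted p = 0.051). Cox4i2, the lung form of subunit 4, read 6.76, 6.90 and 6.71 in the USP7-titled arrays, against 7.02, 7.13 and 7.11 in controls (change -0.30, limma adjusted p = 0.0799). Cox8b, the heart and muscle form of subunit 8, read 6.83, 6.77 and 6.68 in the USP7-titled arrays, against 7.11, 7.25 and 6.95 in controls (change -0.34, limma adjusted p = 0.0559). Neither Cox4i2 nor Cox8b passed, although their groups did not overlap. Cox8c, a testis form of subunit 8, was at -0.18 (limma adjusted p = 0.442). Cox7c, a general subunit, was at -0.23 (limma adjusted p = 0.483), with 2 probe sets that both lay below the median gene. In all, 7 subunit genes lay below the median gene, and 2 of them (Ndufb1 and Cox7a1) were called higher.

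**Figure D2:**
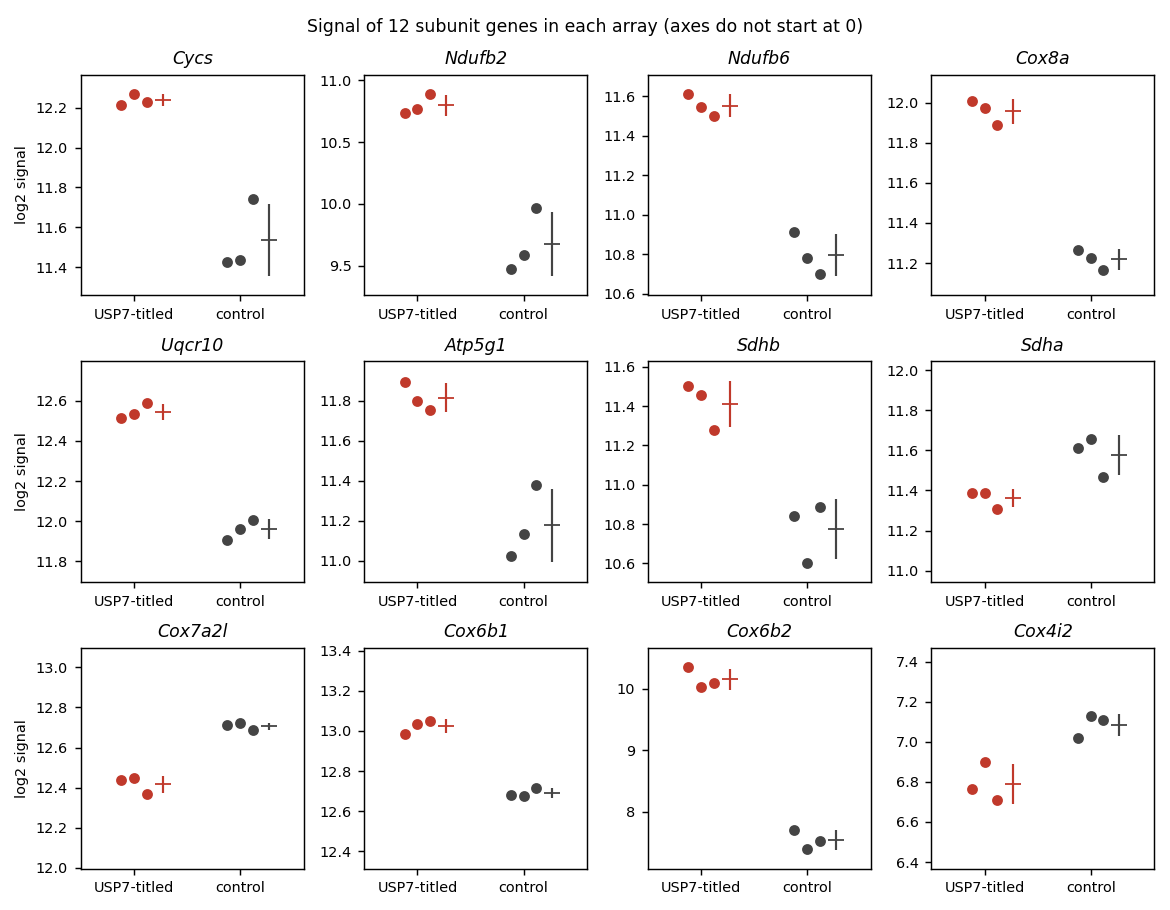
Log2 signal (vertical axes, which do not start at 0 and differ between panels) of 12 subunit genes in each USP7-titled array (red) and each control array (dark grey); dots are arrays, and dashes with bars are means ± SD (n = 3). In each panel the groups do not overlap; Sdha, Cox7a2l and Cox4i2 lie lower in the USP7-titled arrays and the other genes higher.

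Complex V rose in 15 of 17 genes, with a median of 0.29 and 0 lower. In F1, the catalytic head with its central stalk, 4 of 5 genes rose (median 0.21). In the peripheral stalk and the membrane part, Fo, 11 of 12 rose (median 0.31). The c-ring, through which protons pass, is encoded by 3 genes with the same mature protein. Atp5g1 read 11.89, 11.80 and 11.75 in the USP7-titled arrays, against 11.02, 11.13 and 11.38 in controls (change 0.64, SE 0.08, limma adjusted p = 0.000155). Atp5g3 read 12.65, 12.68 and 12.71 in the USP7-titled arrays, against 12.47, 12.38 and 12.45 in controls (change 0.24, SE 0.04, limma adjusted p = 0.000485). Atp5g2 read 12.17, 12.02 and 12.05 in the USP7-titled arrays, against 11.79, 11.93 and 11.96 in controls (change 0.19, SE 0.06, limma adjusted p = 0.0295). All 3 were higher, Atp5g2 least securely: its call was lost without USP7-titled replicate 1, control replicate 1 or control replicate 2 (limma adjusted p = 0.0528 to 0.124), and its dimmest probe set was at -0.44. Differences between the 3 changes were not tested.

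Among the other parts of the ATP synthase, Atp5pb, subunit b of the peripheral stalk, read 11.56, 11.67 and 11.48 in the USP7-titled arrays, against 11.13, 10.96 and 11.12 in controls (change 0.50, SE 0.07, limma adjusted p = 0.000223). Atp5k, subunit e of the membrane part, read 13.32, 13.50 and 13.42 in the USP7-titled arrays, against 12.91, 12.87 and 13.01 in controls (change 0.48, SE 0.05, limma adjusted p = 1.69e-05). Atp5l, subunit g, which lies beside subunit e, rose by 0.43. In F1 the bright Atp5e, subunit epsilon, read 13.29, 13.28 and 13.28 in the USP7-titled arrays, against 13.05, 13.06 and 13.11 in controls. This was a small change with almost no spread (0.21, SE 0.03, limma adjusted p = 0.000184). Atp5d, subunit delta, rose by 0.31 and Atp5b, the catalytic subunit beta, by 0.26. Atp5a1, subunit alpha, read 13.05, 13.05 and 13.04 in the USP7-titled arrays, against 13.08, 13.12 and 13.05 in controls, and did not pass (change -0.03, 95% interval -0.10 to 0.03, limma adjusted p = 0.447). Atp5h, subunit d of the peripheral stalk, did not pass either (change -0.01, 95% interval -0.07 to 0.05, limma adjusted p = 0.795). Atp5j (0.29) and Atp5o (0.40), the subunits of that stalk encoded on chromosome 16 like Usp7, rose.

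Many subunit genes were read by several probe sets, which gives a second look at each change. Of 151 probe sets for subunit genes, 133 lay above the median probe set, and 111 of these were higher, 6 lower and 16 did not pass. Of the 18 dimmer ones 2 were higher, 1 was lower and 15 did not pass. In 40 genes at least 2 probe sets lay above the median. Their signs were the same in 37 genes and opposite in Atp5a1, Atp5c1 and Atp5h. The dimmest of these probe sets had the larger change in 23 of the 40 genes, and the median change was 0.42 by the dimmest and 0.33 by the brightest. When these genes were split at the median level of their brightest probe set, the dimmest had the larger change in 12 of the 20 brighter and 11 of the 20 dimmer genes. Ndufb7 rose by 0.25 at a level of 13.16 and by 0.70 at 11.80. Atp5a1 was at -0.03 by its brightest probe set, and its dimmest, at 11.72, rose by 0.31. Atp5c1, subunit gamma, rose by 0.19 at a level of 12.23, while its other probe set, at 9.38, fell by 0.99. Across the 73 subunit genes above the median gene, change and level had a Pearson r of -0.49 and a Spearman rho of -0.37. This is a description across genes, which share the same 6 arrays. Cox6b2, the gene with the largest change (2.61), entered that set only through its USP7-titled arrays. Its controls averaged 7.54, below the median gene at 8.14. The correlations without Cox6b2 were not computed.

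**Figure D3:**
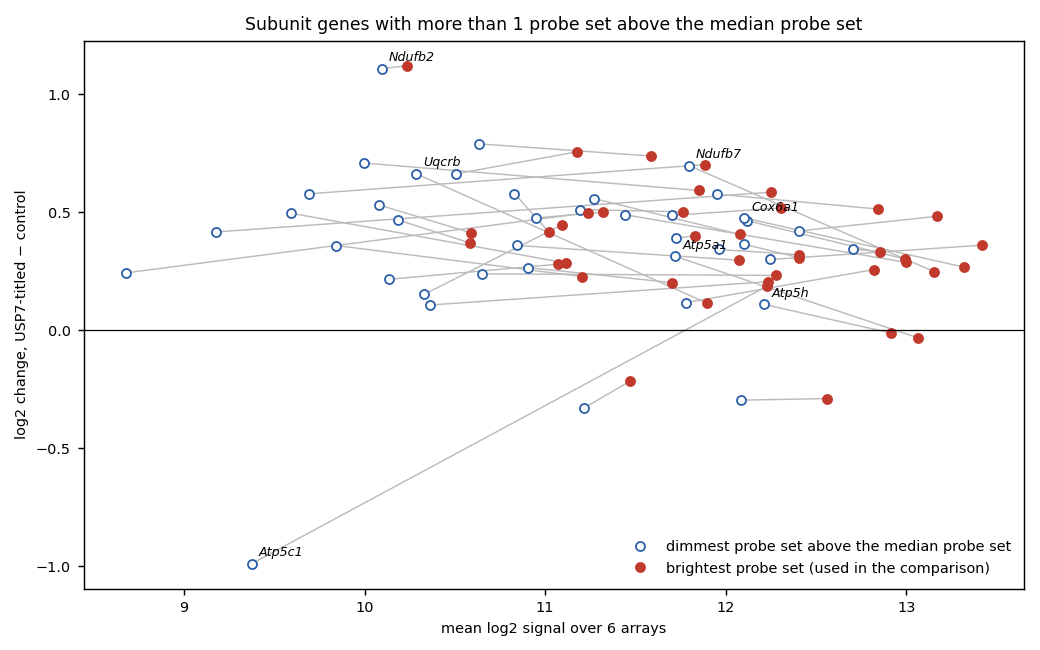
Change (USP7-titled minus control, vertical axis, log2) against mean log2 signal (horizontal axis) for the 40 subunit genes with more than 1 probe set above the median probe set; filled red points are the brightest probe sets, open blue points the dimmest, and grey lines join those of a gene. The brightest probe sets have a median change of 0.33 and the dimmest of 0.42, and the dimmest Atp5c1 probe set lies alone at -0.99.

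Of the probe sets that stood for the 80 genes, 11 end in _s_at and 9 in _x_at, suffixes for probes that can bind more than 1 transcript. Subunit genes often have near-identical processed copies, and such reads are uncertain. With these probe sets left out, an alternative chosen after the data were seen, 61 genes were higher and 3 lower, and the median was 0.33. Probe sets annotated to several genes were not counted. Among them, the one shared by Ndufa11 and Ndufa11b was at 0.69, that of Ndufs5 and its pseudogene at 0.61, that of Ndufs6 and Ndufs6b at 0.39, and the 2 shared by the Ndufb4 family at 0.08 and -0.01.

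Genes that build or serve the complexes had more mixed calls. Of 41 assembly factors 15 were higher and 2 lower, 24 did not pass, and the median was 0.20. Over all genes 17.0% were called higher and 15.9% lower, and no list was tested against these shares. Complex IV assembly factors rose in 7 of 17 (median 0.24) and 0 fell. Cmc2, of that set, read 11.15, 11.28 and 11.29 in the USP7-titled arrays, against 9.89, 9.95 and 9.59 in controls, a change of 1.43 (SE 0.10), or 2.7-fold, with a limma adjusted p of 1.26e-06. In the same set Higd1a, a hypoxia-induced protein of the inner membrane, rose by 0.69, with a dimmest probe set at -0.20, and Cox19, which handles copper, by 0.66. Complex I factors rose in 4 of 12 and fell in 1, with Aifm1 at 0.59, Ndufaf3 at 0.44 and Tmem186 at -0.40. Of 3 complex II factors Sdhaf4, which assists the flavin subunit, rose by 0.45 and Sdhaf1, which assists the iron-sulfur subunit, fell by 0.35. Of 5 complex III factors Uqcc2 rose by 0.60. Of 4 complex V factors Tmem70 rose by 0.51 and Atpif1, which inhibits ATP hydrolysis by the synthase, by 0.70, although the dimmest Atpif1 probe set fell by 0.60.

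Carriers that link the ATP synthase to the rest of the cell rose in 5 of 6 genes, with a median of 0.29. For this and the next lists too, the shares over all genes were 17.0% higher and 15.9% lower. Whether the small lists differ from these shares was not tested. The ADP/ATP carriers Slc25a4 and Slc25a5 rose by 0.76 and 0.29, and the outer membrane channel Vdac3 by 0.54. Of 9 genes for coenzyme Q synthesis only Coq7, a hydroxylase of that path, passed, with a rise of 0.75. Of 10 genes for cristae and cardiolipin 3 rose, among them Chchd3 (0.63) and Micos10 (0.53), both of the cristae junction complex, and 2 fell, with the X-linked cardiolipin enzyme Taz at -0.90. Of 16 regulators of mitochondrial gene expression 1 rose and 4 fell, with a median of -0.15. Tfb1m rose by 0.47, with a dimmest probe set at -0.15, and Polg2, the accessory subunit of the mitochondrial DNA polymerase, fell by 0.85. Pprc1, a coactivator related to PGC-1, fell by 0.50, Mterf3 by 0.45 and Ssbp1 by 0.22. Of the activators whose elements were searched above, 4 were in this list and did not pass: Nrf1 was at -0.01, Gabpa at 0.00, Yy1 at 0.02 and Esrra at -0.30, and Tfam, which packages mitochondrial DNA, was at 0.05.

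The only subunit encoded in mitochondrial DNA with a single-symbol probe set was ND5, of complex I. It read 12.03, 12.05 and 12.09 in the USP7-titled arrays, against 12.44, 12.37 and 12.43 in controls. The groups did not overlap, and ND5 was lower by 0.36 on the log2 scale (change -0.36, SE 0.04, limma adjusted p = 5.84e-05). All 33 nuclear-encoded genes of its complex had positive changes, 31 of them called. Under scaling to the hybridization spikes it still passed as lower (change -0.20, limma adjusted p = 0.0425). A single gene does not stand for the mitochondrial genome.

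**Figure D4:**
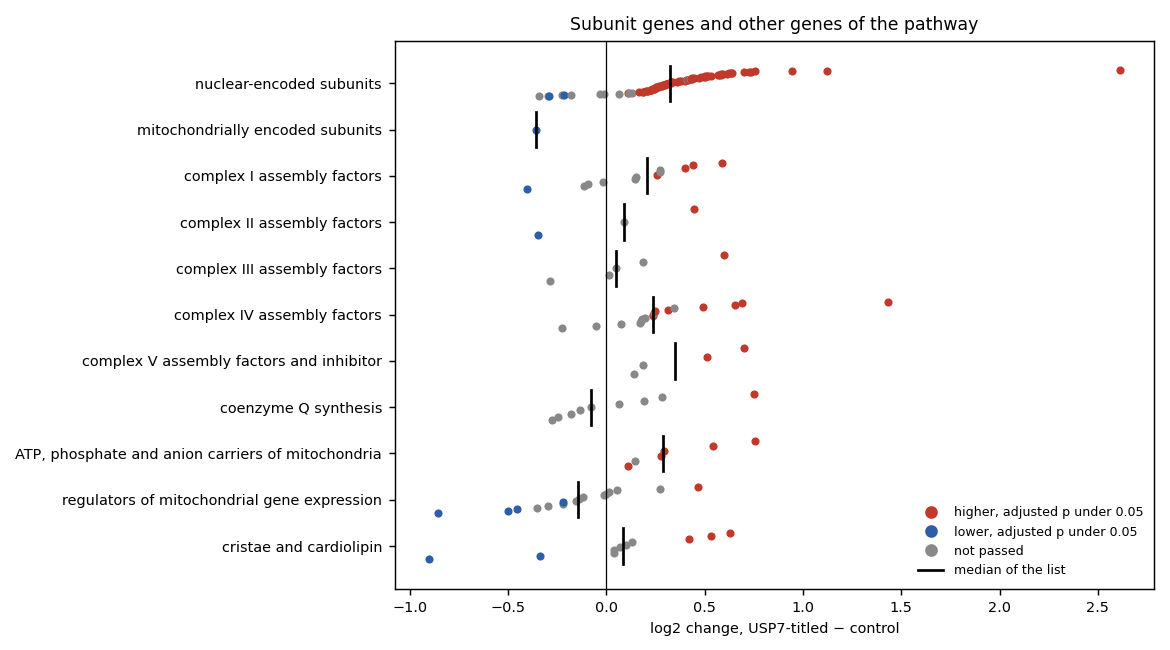
Log2 change (USP7-titled minus control, horizontal axis) of the 80 subunit genes (top) and of the genes in 10 further lists of the pathway; each point is a gene, red where it passed as higher, blue as lower and grey where it did not pass, and black bars are list medians. The subunits have a median of 0.32, the regulators of mitochondrial gene expression one of -0.15, and the mitochondrially encoded list holds ND5 alone.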

How the data were processed

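The deposited table holds log2 signals per probe set for 6 arrays; the base was read from the range of the values, and how the authors summarised and normalized the arrays is not stated in the sources used here. Of 22690 probe sets, 64 were array controls, 20380 had a single gene symbol in the platform annotation, 691 had several and 1555 had none. The brightest single-symbol probe set over all 6 arrays stood for each of 12393 genes. Groups follow the sample titles. Two-sided tests came from limma 3.58.1 (R 4.3.3; lmFit, then eBayes with its trend option), and p-values were adjusted by the Benjamini-Hochberg method over the whole table, with 0.05 as the limit. Precision is limited by 3 arrays per group. An exact permutation test of 3 against 3 arrays cannot go below 0.1 and was not used. The fit was tested on simulated data.

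The subunit genes, the pathway and marker lists and the tests were chosen with earlier results of these data known. Values per array are given, in each complex, for up to 4 called genes with the largest change and for the 2 brightest, for called falls, for genes at the ends of a complex's range that did not pass, and for alternative forms of a subunit; from each pathway list up to 3 called genes are named. Other named genes were chosen after their values were seen. Promoter windows come from RefSeq (GRCm38.p6); motif matches are counted without a test. Alternatives covered normalization, probe set choice, variance model, threshold, membership, the replicate number and leaving out each array.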

Additional observations from a re-analysis of the deposited data

How the results depend on the processing

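The rise of the subunit genes kept its direction in every setting tried. The number higher lay between 50 (eBayes without trend) and 70 (spike scaling), both of 80 genes. Settings that removed genes measured 75 to 79 of the 80. When each probe set was tested alone, 113 of 151 were higher. The median change of the subunit genes was 0.28 with quantile normalization and 0.48 with spike scaling. It was 0.36 with the dimmest probe set above the median, an alternative chosen after the data were seen. Testing each probe set gave 7 lower, 53 higher in complex I, 4 in complex II and 19 in complex IV, with 3325 higher and 3410 lower among all 20380. The number of lower subunit genes was 0 with spike scaling, 4 with the mean or the dimmest probe set of a gene, and 1 at an adjusted p of 0.01, with a change of at least 0.25 also required, or without Cox7a2l, which is not a subunit of the finished complex. Complex III had 5 higher genes without the trend and at 0.01. Without the trend, complexes I, IV and V had 24, 8 and 10 higher genes, against 31, 10 and 15 in the main setting. With the dimmest probe set of a gene they had 23, 7 and 14. Among all genes 944 were lower with spike scaling and 1206 at 0.01. Leaving out each array gave 61 to 65 subunit genes higher, 1 to 3 lower and a median of 0.31 to 0.34. In complexes I to V 28 to 30, 2 to 3, 5 to 7, 9 to 10 and 14 to 15 genes were higher, and among all genes 1699 to 2095 were higher and 1435 to 1925 lower.

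Of 1392 values for 61 named genes, 1311 kept direction and side of the threshold, 55 lost and 13 gained a call, and 13 changed sign. All 13 came with another probe set: Uqcrq at -0.061 (mean), -0.27 (dimmest) and -0.11 (without _s_at and _x_at), Atp5a1 at 0.11 (mean) and 0.31 (dimmest, also above the median), Atp5g2 at -0.13 (mean) and -0.44 (dimmest), Tfb1m at -0.15 (dimmest, also without _s_at and _x_at), and, by the dimmest, Cox8a at -0.41, Higd1a at -0.20 and Atpif1 at -0.60. The cause was not tested. Deviations of same-numbered arrays correlated at 0.08, -0.06 and 0.09, so the numbers were not taken as pairs; with the replicate number as a block 69 subunit genes were higher and 2 lower. The signal over background is not known for these values, which limits what dim probe sets can show.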
